A study of Mus musculus with 66 samples.

Results

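The keratin genes were followed in developing lungs of Nrf2-/- knockout (KO) and Nrf2+/+ wild-type (WT) mice. A gene was counted as a keratin where its single symbol on the array platform was Krt followed by a number, with the keratin-associated Krtap genes left out. This gave 48 of the 18193 genes measured, and the probe set with the highest mean signal over the 66 arrays, taken on the linear scale, stood for each gene (61 keratin probe sets carried 1 symbol). In GRCm38.p6, 24 of the 48 genes lie on chromosome 11 and 24 on chromosome 15.

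The samples were whole lung homogenates, and labelled RNA from each was hybridised to its own one-colour Affymetrix array. KO and WT mice were each sampled at 11 ages, which were E13.5 and E15.5, then E17.5 and E18.5 before birth, PND0 at birth, then PND1 to PND4 daily, and PND14 and PND42, with 3 arrays in each of the 22 groups. The only genetic difference named by the labels is the Nrf2 genotype, and all mice were given the same feed. Each sample was 1 lung, except at E13.5, where it pooled 2 to 3 lungs, and the labels tie no sample to a litter. Nfe2l2 encodes Nrf2, which switches on antioxidant genes under oxidative stress.

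Keratins are the intermediate filament proteins of epithelial cells, and each filament is built from a type I and a type II keratin. Krt8 and Krt18, with Krt7 and Krt19, make the filaments of simple epithelium such as the lining of airways and alveoli. Krt5 and Krt14, with Krt15, belong to basal cells, the layer from which stratified and airway epithelium renews, and Krt4 and Krt13 to the upper layers of moist squamous epithelium such as the oesophagus. Krt6a, Krt6b, Krt16 and Krt17 are known as stress or wound keratins of stratified epithelium.

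The promoters of 5 genes are shown because their expression falls into the pairs described below: Krt8 and Krt18 of simple epithelium, Krt5 and Krt14 of basal cells, and Krt13 of squamous epithelium. Each RefSeq window in GRCm38.p6 holds 300 bases, from 250 before to 50 after the annotated gene start, and is written in the direction of the gene. The windows lie at chr15:102004293-102004592 on the minus strand for Krt8, chr15:102027966-102028265 on the plus strand for Krt18, chr15:101712856-101713155 on the minus strand for Krt5, chr11:100205981-100206280 on the minus strand for Krt14 and chr11:100121517-100121816 on the minus strand for the first of 2 Krt13 windows. Capitals mark the letters TATAAA (the TATA box), TGANTCA (the AP-1 site) and TGANNNNGC on either strand, where N is any base. TGANNNNGC is a looser pattern than the core of the antioxidant response element bound by Nrf2, so a match need not be such an element.
Krt8: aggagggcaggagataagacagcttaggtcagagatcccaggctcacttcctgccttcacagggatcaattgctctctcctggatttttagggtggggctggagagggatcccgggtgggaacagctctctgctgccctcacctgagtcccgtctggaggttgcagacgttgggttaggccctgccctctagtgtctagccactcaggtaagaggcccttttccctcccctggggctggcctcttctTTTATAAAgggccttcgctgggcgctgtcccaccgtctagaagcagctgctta
Krt18: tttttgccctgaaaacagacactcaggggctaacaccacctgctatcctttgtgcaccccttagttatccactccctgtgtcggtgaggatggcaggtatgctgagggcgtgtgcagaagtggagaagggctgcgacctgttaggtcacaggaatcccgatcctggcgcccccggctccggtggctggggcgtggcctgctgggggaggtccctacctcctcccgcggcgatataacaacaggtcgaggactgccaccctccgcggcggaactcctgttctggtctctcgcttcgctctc
Krt5: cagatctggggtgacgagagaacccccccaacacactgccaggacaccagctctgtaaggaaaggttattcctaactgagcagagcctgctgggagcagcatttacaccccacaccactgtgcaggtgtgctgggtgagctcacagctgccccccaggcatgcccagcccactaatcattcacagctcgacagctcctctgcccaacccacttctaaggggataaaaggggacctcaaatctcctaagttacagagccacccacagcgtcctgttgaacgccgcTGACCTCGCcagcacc
Krt14: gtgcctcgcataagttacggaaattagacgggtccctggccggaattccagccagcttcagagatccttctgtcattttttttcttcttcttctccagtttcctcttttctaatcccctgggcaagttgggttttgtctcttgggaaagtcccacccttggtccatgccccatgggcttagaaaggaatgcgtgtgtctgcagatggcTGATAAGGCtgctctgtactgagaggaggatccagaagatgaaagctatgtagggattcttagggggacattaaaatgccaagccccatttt
Krt13: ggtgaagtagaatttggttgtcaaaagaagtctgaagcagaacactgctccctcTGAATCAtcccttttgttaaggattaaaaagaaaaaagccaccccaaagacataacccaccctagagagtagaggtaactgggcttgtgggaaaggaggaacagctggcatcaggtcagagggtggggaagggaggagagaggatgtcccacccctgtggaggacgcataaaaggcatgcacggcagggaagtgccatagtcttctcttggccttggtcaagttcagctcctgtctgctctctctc

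Of the 48 keratins, 32 had a promoter window, in 33 windows. TATAAA was found in 54.5% of keratin windows, against 13.6% of all 32851 windows. TGANNNNGC was found in 51.5% of keratin windows, against 41.3% of all, and TGANTCA in 6.06% of keratin windows, against 7.8% of all. Among the keratins the AP-1 letters stood only in the Krt13 windows, and the looser TGANNNNGC letters stood in 17 genes, Krt5 and Krt14 among them. A site that matches both TGANTCA and TGANNNNGC is counted for both. CACCC, the core of the Klf site, was found in 84.8% of keratin windows and 57.5% of all windows. These are matches of letters and not tests of binding.

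Values are log2(signal + 16) after quantile normalization between arrays, so differences of dim genes are understated, and a level can be compared only within a gene. The array median lay at 6.71. The 24 arrays of PND1 to PND4 were deposited on another scale (trimmed means of 172 to 307) than the 42 arrays of the other ages (500), and both genotypes of an age shared a scale. Nfe2l2 lay between 4.41 and 8.26 in KO libraries and between 10.49 and 12.25 in WT libraries, so no library went against its genotype label. The age labels of KO libraries were less secure. Placed by 2491 genes between WT E15.5 (set to 0) and WT PND0 (set to 1), the KO libraries labelled E17.5 averaged 0.76 ± 0.04 and those labelled E18.5 averaged 0.44 ± 0.08, against 0.57 ± 0.06 in WT E17.5 and 0.80 ± 0.09 in WT E18.5 (SD, n = 3 each). The older label thus had the lower position in KO. Thymocyte markers scored more than 2 above their mean in 7 libraries, which were KO E18.5 replicate 1, KO PND2 replicates 1 and 3, WT E18.5 replicate 3, WT PND0 replicate 2, and WT PND14 replicates 2 and 3. This limit does not mark all libraries with thymus markers. At E13.5 and E15.5 the score of thymic epithelium markers ran from 0.54 to 2.19 in KO and from 0.56 to 2.35 in WT. WT E13.5 replicate 2 stood apart, with the highest cartilage score (4.15) and the lowest simple keratin score (-2.10) of the 66 libraries. KO E13.5 replicate 1 differed from its group, with a position of 0.10 on the scale above, against -0.17 and -0.08 in replicates 2 and 3. Its club cell score was -1.10, against -3.86 and -2.27. In homogenized tissue, fewer cells of a type and less RNA per cell cannot be told apart.

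Most of the family was dim in lung. The count below was not made over all genes, so the keratins are not compared with them. The group mean lay above the array median in at least 1 of the 22 groups for 21 of the 48 keratins and in no group for 27. The simple keratins Krt7, Krt8, Krt18 and Krt19 were above it in all 66 libraries, as were Krt10 and Krt42. Of 20 hair follicle keratins, 18 had no group mean above the array median. Neither of the 2 cornea keratins had a group mean above it, and 4 of 8 epidermal keratins had none above it. The basal and squamous keratins passed it in some libraries only, with Krt4 above the median in 13 of 33 KO libraries and 20 of 33 WT libraries, Krt13 in 12 and 17, Krt5 in 23 and 23, Krt15 in 20 and 20, and Krt14 in 5 and 7.

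The same number of keratins changed with age in both genotypes. An F test over the 11 ages (limma, Benjamini-Hochberg adjusted p under 0.05) called 25 of 48 keratins in KO, where 77.6% of all genes were called, and 25 of 48 in WT, where 74.1% were called. The keratin share was below that background, and 21 keratins were called in both genotypes. The share of all genes called in both was not counted. The 6 smallest p in WT belonged to Krt80 (adjusted p = 2.3e-21), Krt7 (6.1e-19), Krt19 (2.6e-18), Krt23 (1e-15), Krt8 (6.4e-13) and Krt79 (7.2e-13). These F tests cross the change of array scale at PND1 to PND4.

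Between E13.5 and PND42, which were deposited on 1 scale, 12 of 48 keratins changed in KO (9 higher, 3 lower), against 53.9% of all genes (27.8% higher, 26.1% lower), and 17 of 48 changed in WT (8 higher, 9 lower), against 53.8% of all genes (25.7% higher, 28.1% lower). Of these, 9 were called in both genotypes, all with the same sign: Krt7, Krt8, Krt19, Krt23, Krt79 and Krt80 rose, and Krt1, Krt10 and Krt15 fell. The share of all genes called in both genotypes was not counted for this step. Whether the step differed between the genotypes was not tested for the genes called in 1 of them.

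Krt7, a type II keratin of ductal and lung lining cells, stood at 12.39, 12.52 and 12.60 in KO lungs of PND42, against 10.29, 10.02 and 10.22 in KO lungs of E13.5. In WT it stood at 12.50, 12.51 and 12.57 at PND42, against 9.85, 9.17 and 10.24 at E13.5. All 3 late values lay above all 3 early ones in both genotypes, and Krt7 rose by 2.33 ± 0.18 in KO (adjusted p = 1.1e-15) and 2.77 ± 0.18 in WT (1.8e-18; log2, SE, n = 3 per group). Most of the rise came before birth: it was 0.75 in KO and 1.10 in WT from E13.5 to E15.5 (adjusted p = 0.012 and 3.6e-05), and 1.30 in KO and 1.26 in WT from E15.5 to E17.5 (1.6e-07 and 8e-07). The KO value of the later step depends on the label E17.5.

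Krt19, the smallest keratin and a type I partner of Krt7 and Krt8, followed the same course. It stood at 12.77, 12.87 and 12.83 in KO lungs labelled E17.5, against 11.26, 10.19 and 10.32 in KO lungs of E15.5. In WT it stood at 12.72, 12.70 and 12.68 at E17.5, against 10.96, 11.09 and 10.68 at E15.5. The groups did not overlap, and the rise was 2.23 ± 0.25 in KO (adjusted p = 3.9e-10) and 1.79 ± 0.25 in WT (2.8e-07). From PND0 to PND14 Krt19 fell by 1.77 in KO (adjusted p = 1.2e-07) and by 1.44 in WT (3.6e-05), and from PND14 to PND42 it rose by 1.17 in KO (0.00075) and by 1.24 in WT (0.00029).

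Krt8 and Krt18, the partners of the simple filament, were already high at E15.5. Krt8 stood at 12.51, 11.70 and 11.82 in KO lungs of E15.5, against 11.21, 10.89 and 11.17 at E13.5, and at 12.51, 12.42 and 12.52 in WT lungs of E15.5, against 11.34, 10.28 and 11.28 at E13.5. The rise was 0.92 ± 0.20 in KO (adjusted p = 0.0026) and 1.51 ± 0.20 in WT (1.9e-07), and the low value at WT E13.5 belonged to replicate 2, the library that stood apart. Krt18 did not pass over this step in KO (0.66 ± 0.21, adjusted p = 0.086) and rose by 1.26 ± 0.21 in WT (4.7e-05). Within the arrays of PND1 to PND4, all 4 simple keratins fell from PND1 to PND4: Krt8 by 1.06 in KO and 1.08 in WT, Krt18 by 1.30 and 1.29, Krt19 by 1.38 and 1.32, and Krt7 by 0.89 and 0.95 (all adjusted p at or below 0.00075). These were 4 of the 4 keratins called over that step in KO (10.9% of all genes) and 4 of the 5 called in WT (13.4%), where the other was Krt71.

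**Figure D1:**
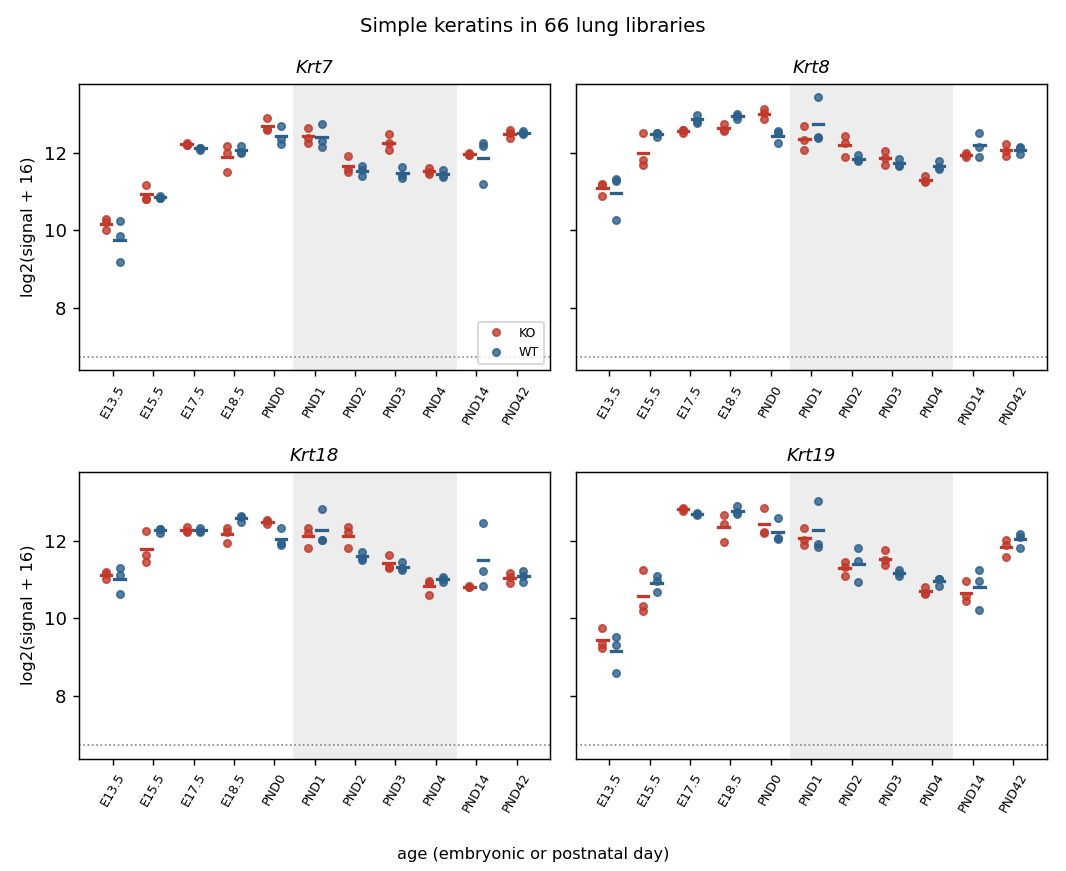
Simple keratins in each of 66 libraries, as log2(signal + 16) on the y axis against age on the x axis, with KO left (red), WT right (blue), bars at the mean of 3 and the array median of 6.71 dotted. All values lie above 8.5, the lowest at E13.5, and the shaded ages PND1 to PND4 were deposited on another scale.

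Basal keratins were high at several ages and low at others. Krt5, the type II keratin of basal cells, stood at 7.49, 7.57 and 7.29 in KO lungs of PND42, against 7.78, 10.59 and 10.90 at PND14. In WT it stood at 6.84, 6.71 and 5.54 at PND42, against 8.06, 10.18 and 9.44 at PND14. In both genotypes all values of PND42 lay below all of PND14, and Krt5 fell by 2.31 ± 0.63 in KO (adjusted p = 0.0093) and by 2.86 ± 0.63 in WT (8e-04). The higher PND14 values came from replicates 2 and 3. In KO these scored 2.08 and 2.48 on a list of oesophagus genes, against 0.23 in replicate 1. In WT their oesophagus scores were 0.83 and 2.16, against 0.38 in replicate 1, and their thymocyte scores were 6.07 and 3.29, against 0.39. The same libraries enter the falls of Krt15 and Krt4 below, and the part of other tissue in these falls was not tested. For Krt15 and Krt4, however, WT replicate 2 had the lowest of the 3 WT values of PND14 (8.55 and 9.70). From E13.5 to PND42 Krt5 did not pass in KO (-0.81 ± 0.63, adjusted p = 0.32) and fell by 3.17 ± 0.63 in WT (2.8e-05). The thymic epithelium score also stood higher at E13.5 (0.54 to 1.25 in KO and 0.56 to 1.77 in WT) than at PND42 (-0.95 to -0.25 and -0.46 to 0.32). Its part in the changes of basal keratins between these ages was not tested.

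Krt15, a type I keratin of basal cells, stood at 11.96, 8.90 and 10.21 in KO lungs of PND0, against 12.06, 11.88 and 12.00 in WT lungs of PND0, its highest group mean. Within the arrays of PND1 to PND4 it lay below 8 in all libraries but WT PND2 replicate 1, which stood at 11.84. From PND14 to PND42 it fell by 4.22 ± 0.88 in KO (adjusted p = 0.00063) and by 3.79 ± 0.88 in WT (0.0016). Krt14, the type I partner of Krt5, was dim: it reached 8.76 in a KO library of PND14 and 8.74 in WT E13.5 replicate 2.

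The squamous keratins had the widest range of the family, from 4.97 to 13.63 for Krt4 and from 4.1 to 12.50 for Krt13. In KO lungs labelled E17.5 Krt4 stood at 5.97, 5.32 and 7.32, against 6.16, 6.41 and 6.56 at E15.5, and neither squamous keratin passed over this step. Krt4 stood at 10.98, 10.51 and 10.81 in WT lungs of E17.5, against 7.76, 8.66 and 6.10 at E15.5, a rise of 3.26 ± 1.02 (adjusted p = 0.018). Krt13 rose by 3.49 ± 1.03 over the same step in WT (0.011). Krt4 was high at birth in both genotypes, with 12.39, 9.26 and 10.40 in KO and 12.71, 12.22 and 12.97 in WT.

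At PND1 to PND4 both squamous keratins were below the array median in all 12 KO libraries, where Krt4 did not exceed 6.70. In WT the exceptions were libraries of PND2, all 3 for Krt4 (13.42, 8.99 and 6.96) and replicates 1 and 2 for Krt13 (12.50 and 7.24). At PND14 they were high again, with Krt4 at 8.09, 13.23 and 13.63 in KO and 10.12, 9.70 and 12.89 in WT. From PND14 to PND42 Krt4 fell by 3.47 ± 1.02 in KO (adjusted p = 0.017) and by 3.1 ± 1.02 in WT (0.030).

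**Figure D2:**
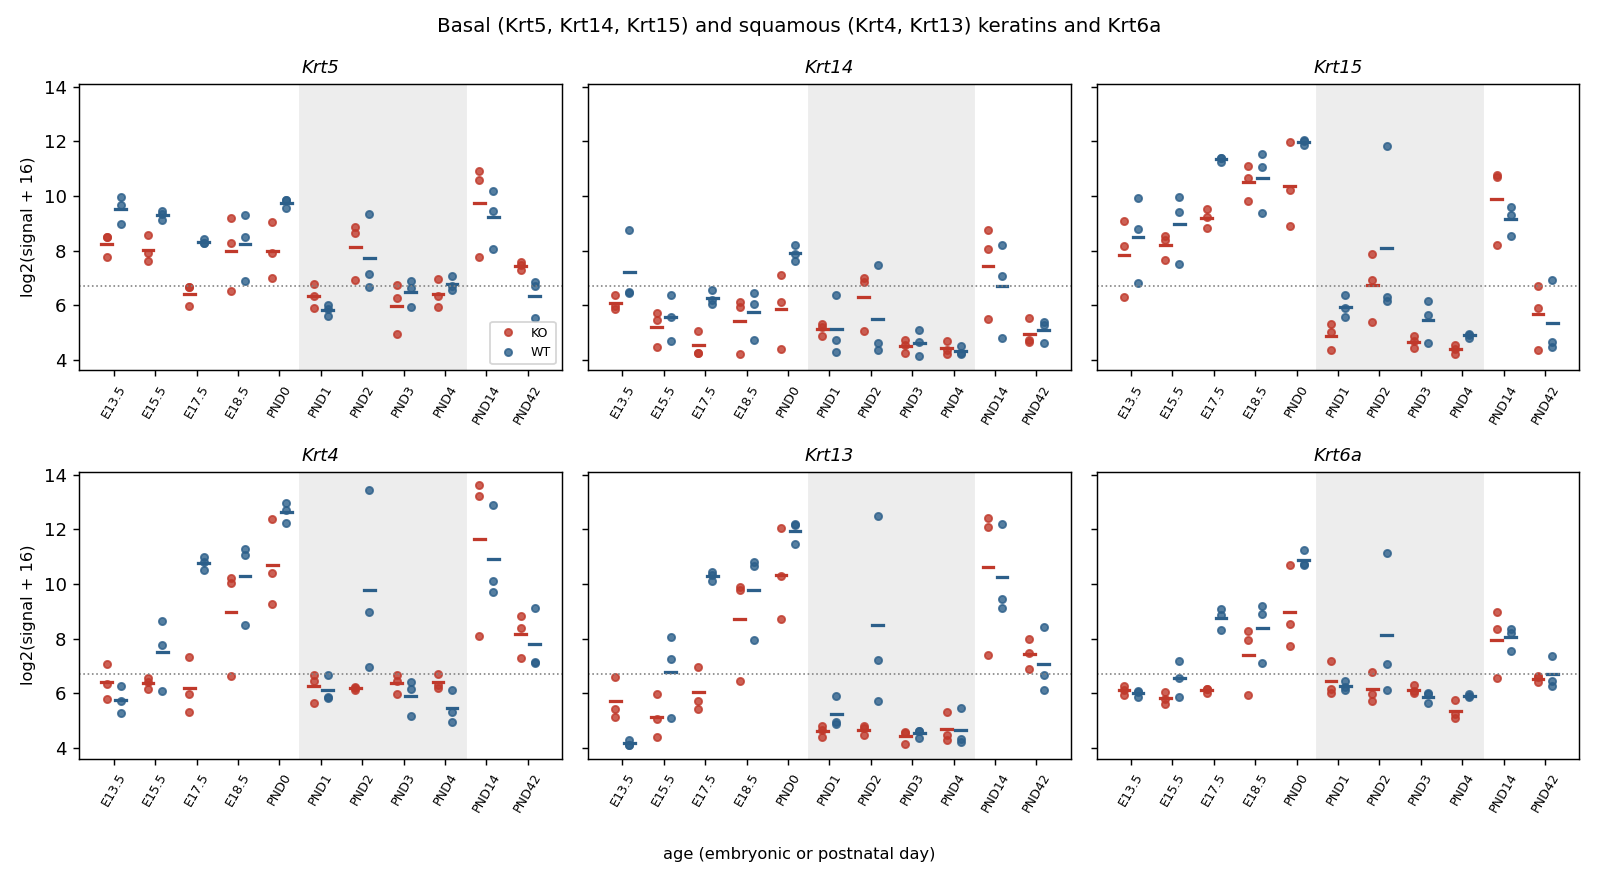
Basal and squamous keratins and Krt6a in each of 66 libraries, as log2(signal + 16) on the y axis against age on the x axis, with KO left (red), WT right (blue), bars at the mean of 3, the array median of 6.71 dotted and PND1 to PND4 shaded. Krt4, Krt13 and Krt6a are low in the KO libraries and high in the WT libraries labelled E17.5, and 1 WT library of PND2 stands far above the other 2.

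Krt80, an epidermal type II keratin gene beside Krt7 on chromosome 15, had the largest difference of the 48 genes between PND42 and E13.5 in both genotypes. It stood at 10.93, 11.03 and 11.17 in KO lungs of PND42, against 8.05, 6.46 and 6.48 at E13.5, and at 10.81, 10.76 and 10.89 in WT lungs of PND42, against 6.57, 6.24 and 6.52 at E13.5. The groups did not overlap, and the rise was 4.05 ± 0.27 in KO (16.6-fold, adjusted p = 1.9e-18) and 4.38 ± 0.27 in WT (20.8-fold, 8.8e-20). The KO value of 8.05 at E13.5 belonged to replicate 1, the library that differed from its group in position and club cell score. Krt23, a type I keratin of simple epithelium, rose by 1.47 ± 0.27 in KO (adjusted p = 1.6e-05) and 1.81 ± 0.27 in WT (6.7e-06) from E18.5 to PND0. Krt79 rose by 1.06 in KO (0.00073) and 1.32 in WT (0.00016) from PND0 to PND14.

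Summed over 7 steps between ages of 1 array scale (6 between neighbouring ages of the first scale, and PND1 to PND4), 42 of 336 keratin and step pairs were called in KO (21 higher, 21 lower), against 19.9% of gene and step pairs (10.2% higher, 9.66% lower), and 38 of 336 in WT (21 higher, 17 lower), against 13.3% (6.96% higher, 6.37% lower). Of the 48 keratins, 20 changed at some step in KO and 19 in WT. The share of all genes that changed at some step was not counted, so these numbers are not compared with it. Into E15.5, 3 changed in KO and 4 in WT (4.11% and 10.9% of all genes), into E17.5 5 in KO and 6 in WT (33.3% and 24.6%), and from E18.5 into PND0 7 in KO and 5 in WT (33.9% and 5.71%). From PND0 to PND14, 11 changed in KO and 7 in WT (34.5% and 16.9%), and from PND14 to PND42 12 in KO and 10 in WT (15.2% and 20%). The step from E17.5 to E18.5 rests on the KO age labels: no keratin passed in KO (6 had an unadjusted p under 0.05), where 7.12% of all genes were called. Krt80 alone passed in WT, 1.47 ± 0.27 higher (adjusted p = 0.001), where 1.83% were called.

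**Figure D3:**
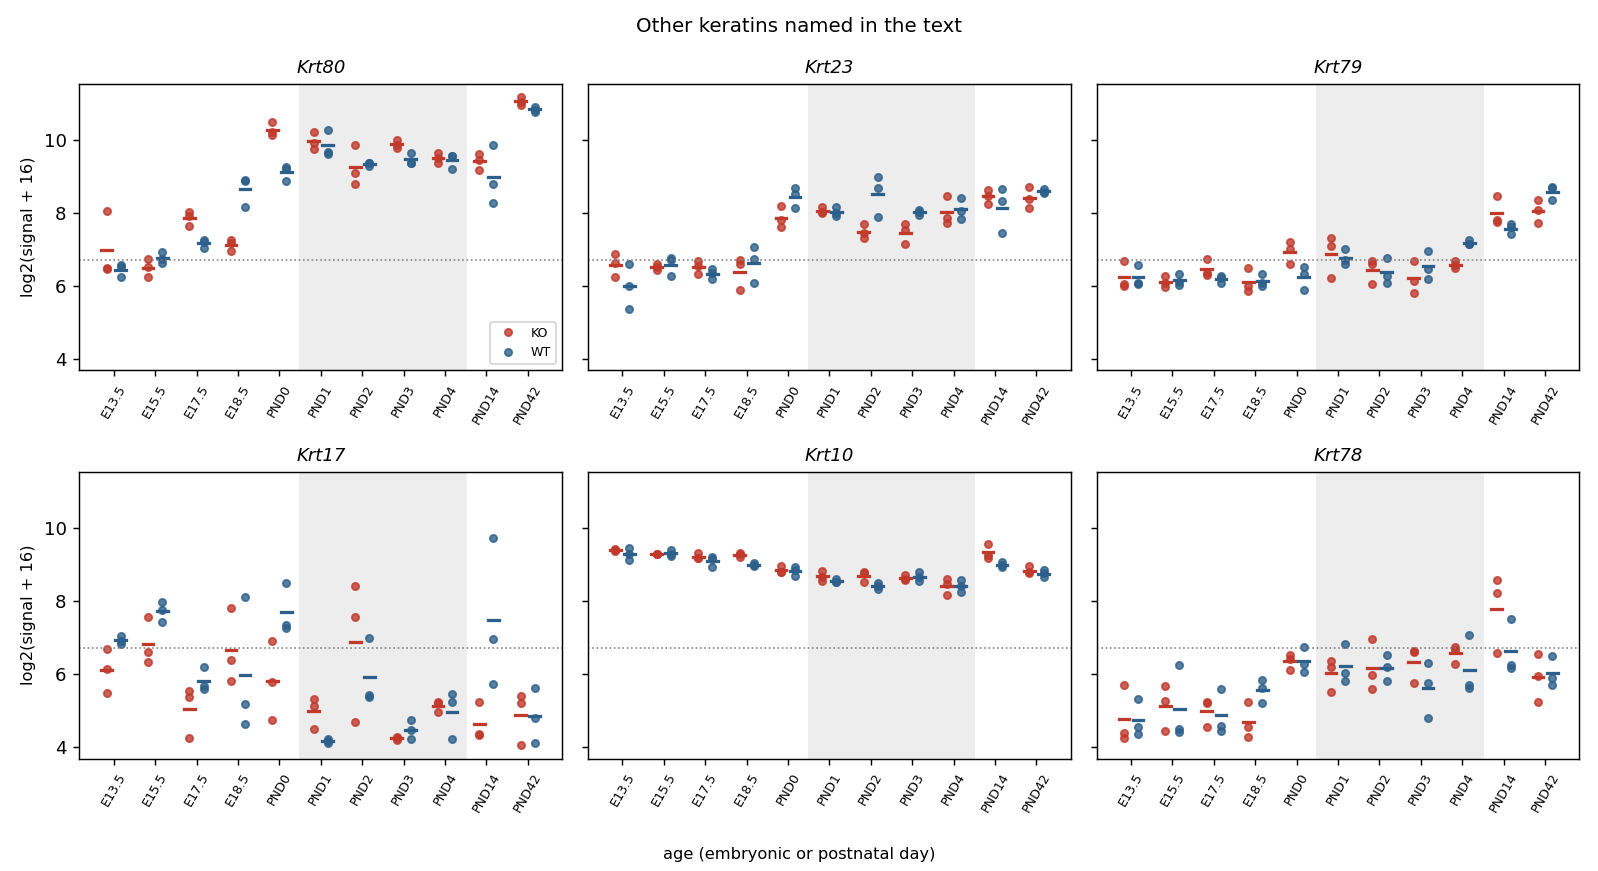
Krt80, Krt23, Krt79, Krt17, Krt10 and Krt78 in each of 66 libraries, as log2(signal + 16) on the y axis against age on the x axis, with KO left (red), WT right (blue), bars at the mean of 3, the array median of 6.71 dotted and PND1 to PND4 shaded. Krt80 is highest at PND42 in both genotypes, and 1 WT library of PND14 is high for Krt17.

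Averaged over the 11 ages, 3 of 48 keratins differed between KO and WT, 1 higher and 2 lower, against 11.3% of all genes (6.77% higher and 4.56% lower). Krt6a, a stress keratin gene next to Krt5, was lower (6.64 in KO and 7.41 in WT, a difference of -0.77 ± 0.20, SE, n = 33 per genotype, adjusted p = 0.0065). Krt13 was lower (6.59 in KO and 7.57 in WT, -0.98 ± 0.31, adjusted p = 0.031). Krt10, an epidermal type I keratin, was slightly higher (8.95 in KO and 8.84 in WT, 0.12 ± 0.03, adjusted p = 0.011), with a positive difference at 9 of 11 ages.

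The calls of Krt6a and Krt13 were not shared by their other probe sets, which gave -0.42 and -0.58 for Krt6a (adjusted p of 0.069 and 0.075) and -0.28 and -0.42 for Krt13 (0.47 and 0.21). The Krt6a set at -0.42 has the higher mean of the log2 values (7.09, against 7.03 for the set used).

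None of the 3 averages passed without the ages E17.5 and E18.5, whose KO labels are less secure: they were then -0.53 for Krt6a (adjusted p = 0.11), -0.61 for Krt13 (0.28) and 0.10 for Krt10 (0.055). Krt10 was 0.06 (0.27) without quantile normalization. Krt13 also missed the threshold without KO E18.5 replicate 2 (-0.88, adjusted p = 0.052) and at the 7 ages of 1 array scale (-0.89, 0.18). Without the 7 libraries with high thymocyte scores, Krt10 (0.11, adjusted p = 0.051) and Krt13 (-0.96, 0.072) missed it as well. At the 7 ages of 1 array scale 3 of 48 keratins passed (6.51% of all genes), which were Krt10, Krt6a and Krt17 (-0.92, adjusted p = 0.024), and at PND1 to PND4 Krt23 alone (-0.41, 0.031; 16.2% of all genes).

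The other named keratins did not pass in the average. The simple keratins differed little, at 0.16 ± 0.06 for Krt7 (adjusted p = 0.051), -0.08 for Krt8, -0.07 for Krt18 and -0.06 for Krt19. The basal keratins stood at -0.43 ± 0.19 for Krt5, -0.38 ± 0.22 for Krt14 and -0.73 ± 0.27 for Krt15 (adjusted p of 0.15, 0.31 and 0.068), and Krt4 at -0.85 ± 0.31 (0.068). The second Krt4 probe set, with r = 0.97 to the first, passed (-0.87, adjusted p = 0.049). Over all 48 keratins the median difference was -0.02, against 0.01 over all genes.

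At single ages, 15 of 528 keratin and age pairs passed, 3 higher (2.99% of all gene and age pairs) and 12 lower (2.91%), against 5.9% in either direction. The pairs fell on 12 genes and 6 ages, and the share of all genes called at some age was not counted.

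**Figure D4:**
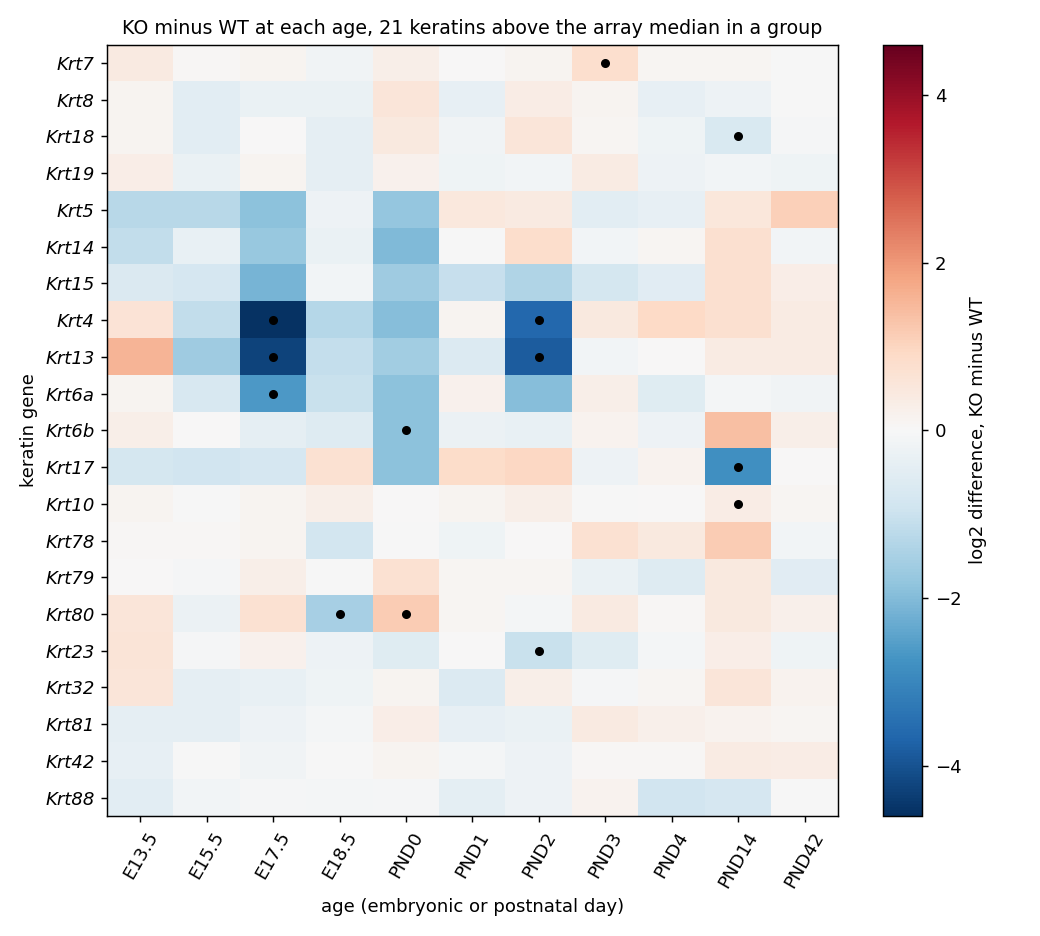
KO minus WT at each age (x axis) for the 21 keratins above the array median in a group (y axis), with the log2 difference as colour (red higher in KO, blue lower) and a dot where the adjusted p was under 0.05. The darkest cells are Krt4 and Krt13 at E17.5 and PND2.

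At the label E17.5, 3 of 48 keratins passed, all lower in KO (1.65% of all genes passed in either direction and 0.335% were lower). Krt4 stood at 5.97, 5.32 and 7.32 in KO, against 10.98, 10.51 and 10.81 in WT, and Krt13 at 5.73, 5.45 and 6.96 in KO, against 10.43, 10.12 and 10.33 in WT. Krt6a stood at 6.02, 6.15 and 6.17 in KO, against 9.07, 8.32 and 8.87 in WT. All KO values lay below all WT values for the 3 genes. Krt4 was 23.6-fold lower (-4.56 ± 1.02, SE, n = 3 per group, adjusted p = 0.0079), Krt13 19-fold lower (-4.25 ± 1.03, 0.019) and Krt6a 6.24-fold lower (-2.64 ± 0.66, 0.023). Most KO values lay below the array median, so these folds hold for the log2(signal + 16) scale, which understates them.

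The pair Krt4 and Krt13 differed alike although they lie on different chromosomes. The second Krt4 probe set gave -4.51 (adjusted p = 0.0058), while the other probe sets of Krt13 (-1.34 and -1.75, adjusted p of 0.52 and 0.28) and Krt6a (-1.53 and -1.75, 0.15 and 0.32) did not pass. The basal keratins stood lower in all 3 KO than in all 3 WT libraries without passing: Krt5 at -1.89 ± 0.63 (adjusted p = 0.15), Krt15 at -2.14 ± 0.88 (0.32) and Krt14 at -1.74 ± 0.72 (0.33). How many of all genes separate the libraries in this way was not counted, here or at other ages, so the separation is a description only. None of the simple keratins passed. Krt7 ran from 12.21 to 12.27 in KO and from 12.09 to 12.14 in WT, and Krt19 from 12.77 to 12.87 in KO and from 12.68 to 12.72 in WT. Krt8 had all KO values below the WT values (12.52, 12.59 and 12.60 in KO, against 12.98, 12.79 and 12.84 in WT; -0.30 ± 0.20, adjusted p = 0.67).

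With the KO libraries labelled E17.5 set against WT E18.5, the age to which their position on the scale above was nearer, Krt4 still passed (-4.08, adjusted p = 0.035; 0.918% of all genes passed), and Krt13 (-3.75, 0.066) and Krt6a (-2.29, 0.088) did not. Krt4 missed the threshold without KO replicate 2 (-4.12, adjusted p = 0.087). Krt13 missed it without KO replicate 1 or 2 or any WT replicate (-3.95 to -4.34, adjusted p up to 0.12), and Krt6a without any 1 of the 6 libraries (-2.48 to -2.86, up to 0.11).

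Squamous genes other than keratins were examined at the same age in a list of 20 oesophagus genes, of which 18 were measured. Of these 1 was higher, Fabp5, a fatty acid binding protein (0.60, adjusted p = 0.0027), and none lower, while 5 had an unadjusted p under 0.05. The median difference of the list was -0.39, against 0.02 over all genes. Sprr3, a cornified envelope protein of the oesophagus, stood at 5.44, 4.23 and 5.49 in KO and 7.84, 6.73 and 7.40 in WT without passing (-2.27, adjusted p = 0.12). The mean score of the list ran from -0.32 to -0.12 in KO and from 0.27 to 0.55 in WT. Other markers also separated these 6 libraries. The score of 6 measured liver genes ran from 0.95 to 1.96 in KO and from -1.70 to -1.33 in WT, with Afp at 4.85 (adjusted p = 0.17) and Alb at 4.29 (0.22) and none of the 6 past the threshold. The alveolar type I score ran from 0.41 to 0.49 in KO and from -0.33 to 0.10 in WT. The part of oesophagus, liver or alveolar cells in the result was not tested.

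At the label E18.5, Krt80 was the 1 keratin that passed (12.5% of all genes passed, 5.35% lower). It stood at 7.18, 6.95 and 7.26 in KO, against 8.90, 8.88 and 8.15 in WT, and all KO values lay below the WT values (-1.51 ± 0.27, 2.86-fold lower, adjusted p = 0.00012). The alveolar type I score ran from -0.82 to -0.25 in these KO libraries and from 0.51 to 0.96 in WT, and its part in the result was not tested. Set against WT E17.5, the same KO libraries gave -0.05 for Krt80 (adjusted p = 0.99), and none of the 48 keratins passed, with 5 at an unadjusted p under 0.05 (0.258% of all genes passed).

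At birth (PND0), 3 of 48 keratins passed, 1 higher and 2 lower in KO (14.5% of all genes, 5.85% higher and 8.6% lower). Krt80 stood at 10.49, 10.21 and 10.11 in KO, against 9.26, 8.88 and 9.20 in WT, and was 2.24-fold higher (1.16 ± 0.27, adjusted p = 0.0019). Its difference was thus of opposite sign at E18.5 and at birth. Krt6b, a stress keratin, stood at 6.03, 5.23 and 5.63 in KO, against 8.02, 7.18 and 7.38 in WT (-1.90 ± 0.54, adjusted p = 0.013). Krt16, another, stood at 4.93, 4.11 and 4.27 in KO, against 6.44, 5.89 and 5.48 in WT (-1.50 ± 0.39, 0.0058), below the array median in both. Without WT replicate 1, Krt6b (-1.65, adjusted p = 0.077) and Krt16 (-1.25, 0.058) missed the threshold, as did Krt6b without KO replicate 2 (-1.70, 0.070). The basal keratins Krt5 and Krt14 stood lower in all 3 KO libraries than in all WT libraries without passing (-1.77 and -2.02, adjusted p of 0.060 and 0.063). The share of all genes that separate in this way was not counted. The oesophagus score was 1.42, 0.16 and 0.68 in KO and 1.52, 1.12 and 1.63 in WT, and 1 of its 18 genes passed (Sprr1a, -1.64, adjusted p = 0.04). The skeletal muscle score was 3.27, 0.33 and -0.88 in KO and 2.15, 2.57 and 2.11 in WT. Both scores overlapped between the genotypes, and their part in the result was not tested.

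At PND2, 3 of 48 keratins passed, all lower in KO (5.96% of all genes passed, 2.85% lower). Krt4 stood at 6.24, 6.11 and 6.21 in KO, against 13.42, 8.99 and 6.96 in WT, and Krt13 at 4.82, 4.47 and 4.74 in KO, against 12.50, 7.24 and 5.72 in WT. The KO values were close together and the WT values spread over more than 6 log2 units. The differences were -3.60 ± 1.02 for Krt4 (adjusted p = 0.024) and -3.81 ± 1.03 for Krt13 (0.017) (SE pooled over the 22 groups). With the 6 arrays of PND2 alone in the fit, neither passed (adjusted p of 0.31 and 0.32), nor did Krt23, the third keratin (0.21). The SD of the 3 WT libraries was 3.31 for Krt4 and 3.56 for Krt13.

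The call rested on WT replicate 1. Without it the differences were -1.79 for Krt4 (adjusted p = 0.38) and -1.80 for Krt13 (0.36), and Krt4 missed the threshold without KO replicate 1 (-3.63, 0.084) or 3 (-3.61, 0.052), as Krt13 did without KO replicate 1 (-3.88, 0.063). Replicate 1 of WT also had the highest oesophagus score of the 6 libraries (1.11, against -0.76 to -0.16 in KO and -0.58 and -0.57 in the other WT libraries) and 10.16 for Cnfn, a cornified envelope gene, against 5.47 to 6.75 in the other 5. Krt23 stood at 7.45, 7.68 and 7.31 in KO, against 8.98, 8.69 and 7.88 in WT (-1.04 ± 0.27, adjusted p = 0.012), and it missed the threshold without WT replicate 1 (-0.80, 0.11), WT replicate 2 (-0.95, 0.066), KO replicate 1 (-1.02, 0.059) or KO replicate 3 (-0.95, 0.051). Thymocyte scores were 1.12 to 4.24 in KO and -0.68 to -0.33 in WT at this age. Without the libraries of high thymocyte score, which leaves 1 KO library taken to vary like the other groups, the differences were -3.68 for Krt4 (adjusted p = 0.18), -4.01 for Krt13 (0.14) and -0.83 for Krt23 (0.18).

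At PND3, Krt7 was the 1 keratin that passed (10.8% of all genes, 4.12% higher). It stood at 12.08, 12.25 and 12.49 in KO, against 11.65, 11.36 and 11.44 in WT. All KO values lay above the WT values, and Krt7 was 1.72-fold higher (0.79 ± 0.18, adjusted p = 0.0033). Without quantile normalization the difference was 0.45 (adjusted p = 0.16), and with array medians subtracted instead 0.71 (0.068). Markers of other cells moved with it: the liver score ran from -1.26 to -1.06 in KO and was -0.20, 6.12 and 3.45 in WT, the club cell score from -0.27 to 0.45 in KO and from 1.16 to 1.5 in WT, and the skeletal muscle score from -0.70 to 4.85 in KO and from -1.65 to -1.13 in WT. Their part in the result was not tested.

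At PND14, 4 of 48 keratins passed, 1 higher and 3 lower in KO (9.42% of all genes passed, 5.21% higher and 4.2% lower). Krt17, a stress keratin also found in basal cells, stood at 5.23, 4.36 and 4.33 in KO, against 5.74, 9.71 and 6.96 in WT (-2.83 ± 0.71, adjusted p = 0.0080). Krt18 stood at 10.82, 10.83 and 10.80 in KO, against 11.23, 12.47 and 10.84 in WT (-0.69 ± 0.21, 0.033). For both genes WT replicate 2 was far above the others, and without it the differences were -1.71 (adjusted p = 0.29) and -0.22 (0.72).

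WT replicate 2 of PND14 had the highest thymocyte score of all libraries (6.07). Its thymic epithelium markers Foxn1 and Psmb11 stood at 8.45 and 8.97, against 4.76 to 5.75 and 4.92 to 5.92 in KO and 4.63 to 6.37 and 4.72 to 6.54 in the other WT libraries. Without the libraries of high thymocyte score, which leaves WT replicate 1 alone and takes it to vary like the other groups, the differences were -1.10 for Krt17 (adjusted p = 0.61) and -0.42 for Krt18 (0.59). Krt18 also missed the threshold without any 1 of the KO libraries (-0.68 to -0.70, adjusted p up to 0.10).

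Krt10 stood at 9.25, 9.17 and 9.56 in KO lungs of PND14, against 8.98, 9.07 and 8.91 in WT (0.34 ± 0.11, adjusted p = 0.037), and missed the threshold without KO replicate 3 (0.22, 0.29), WT replicate 2 (0.38, 0.10) or WT replicate 3 (0.30, 0.092). Krt77, an epidermal keratin below the array median in all libraries, stood at 4.68, 4.25 and 4.41 in KO, against 6.27, 6.48 and 5.58 in WT (-1.66 ± 0.39, adjusted p = 0.0047, and -1.48 and 0.077 without WT replicate 2). With the 6 arrays of PND14 alone in the fit, Krt17, Krt18, Krt10 and Krt77 did not pass (adjusted p of 0.62 to 0.65). The squamous keratins did not pass at this age: Krt4 stood at 0.74 ± 1.02 (adjusted p = 0.73) and Krt13 at 0.37 ± 1.03 (0.88), with wide overlap.

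No keratin passed at E13.5, E15.5, PND1, PND4 or PND42, where 5, 3, 2, 3 and 4 of the 48 had an unadjusted p under 0.05 in limma. At these ages 1.96%, 0.143%, 2.54%, 0.643% and 4.84% of all genes passed. Whether the difference between KO and WT depended on age was tested with an F test over the 11 differences, which called 10 of 48 keratins, against 35.2% of all genes. Krt80 had the smallest p (6.9e-05). The others included both squamous keratins (Krt4 at 0.011 and Krt13 at 0.023), the simple pair Krt8 (0.021) and Krt18 (0.020), and Krt5 (0.047).

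To compare the 3 groups within a library, each gene was expressed as its deviation from its own mean over the 66 libraries, and the deviations were averaged over the 4 simple, 3 basal or 2 squamous genes. The simple score ran from -2.10 to 1.26, the basal score from -2.53 to 3.06 and the squamous score from -2.90 to 5.46. The SD within groups, pooled over the 22 groups, was 0.21 for the simple, 0.87 for the basal and 1.32 for the squamous score. Libraries of the same genotype and age thus differed far more in squamous than in simple keratins.

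The squamous score was above the simple score in 27 of 66 libraries, 11 of 33 KO and 16 of 33 WT. At E17.5 it was below in all 3 KO libraries (-2.89 to -1.15) and above in all 3 WT libraries (2.07 to 2.37). At PND0 it was above in all 6 libraries (0.60 to 3.57 in KO and 3.75 to 4.64 in WT), and at PND14 as well (0.53 to 5.94 in KO and 2.02 to 5.28 in WT). At PND1, PND3 and PND4 it was below in all 18 libraries.

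The 10 highest squamous scores were spread over both genotypes and 4 ages. They were led by KO PND14 replicate 3 (5.46), WT PND2 replicate 1 (5.41) and KO PND14 replicate 2 (5.11). All 3 WT libraries of PND0 and KO PND0 replicate 1 (4.66) were among them. In simple score the first 3 ranked 54, 42 and 51 of 66, while KO PND0 replicate 1 ranked 2, WT E18.5 replicate 1 ranked 3 and WT E18.5 replicate 3 ranked 5, so high squamous scores stood beside both low and high simple scores.

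**Figure D5:**
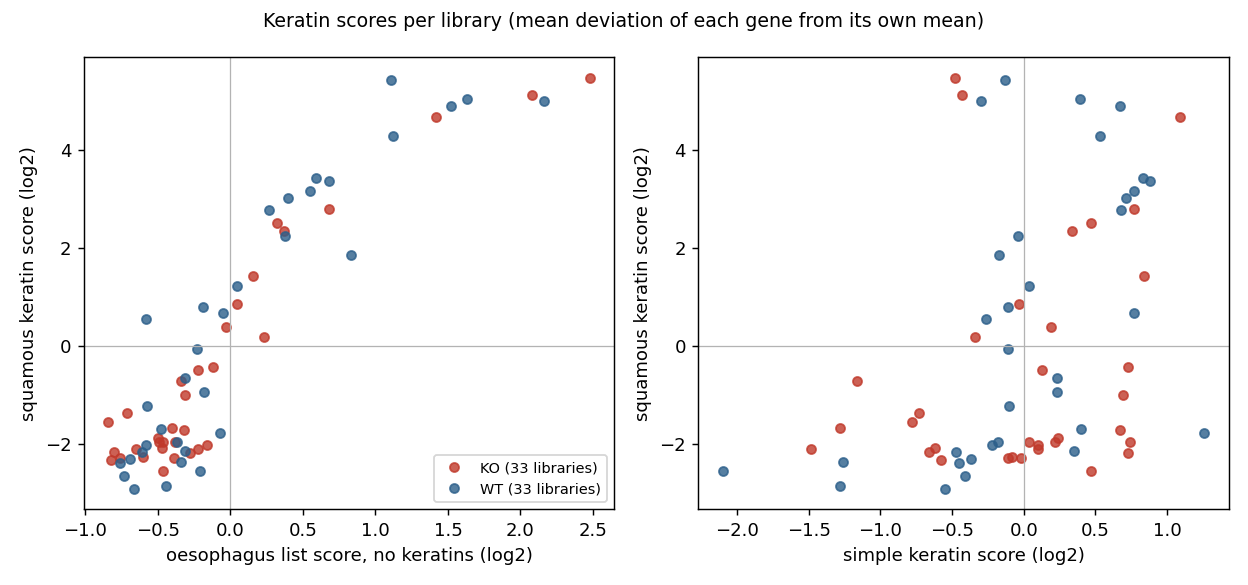
Squamous keratin score of each of 66 libraries (y axis, mean log2 deviation of Krt4 and Krt13) against the score of 18 measured oesophagus genes without keratins (left x axis) and against the simple keratin score (right x axis), with KO in red and WT in blue. The points rise together in the left panel (Pearson r of 0.91) and scatter in the right panel (0.38).

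Across the 66 libraries the squamous score went with the oesophagus list, which holds no keratin (Pearson r = 0.91, Spearman rho = 0.84). The relation was as close within groups, with r = 0.87 between deviations from the group means. The basal score went with 10 non-keratin markers of airway basal cells such as Trp63, the master regulator of basal cells (r = 0.85, rho = 0.84, 0.82 within groups). The simple score went with 11 measured genes of simple epithelium (r = 0.84, rho = 0.81), less closely within groups (0.56). The squamous score had r = 0.76 (rho = 0.67) with the basal score and 0.81 within groups, but r = 0.38 (rho = 0.43) with the simple score and -0.06 within groups. It had r = 0.49 (0.44 within groups) with the skeletal muscle score and 0.13 (0.01 within groups) with the thymocyte score. The basal score had r = 0.41 (0.29 within groups) with the thymic epithelium score and 0.07 (-0.02 within groups) with the simple score. The libraries share genotype, age and array scale, so these values describe the set and are no test.

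Krt4 and Krt13 had r = 0.98 over the 66 libraries (0.94 within groups), Krt4 and Krt6a 0.92 (0.85), Krt8 and Krt18 0.85 (0.80), Krt7 and Krt19 0.85 (0.74), and Krt5 and Krt14 0.84 (0.82). Basal and squamous genes were also close to each other: Krt4 and Krt15 had 0.75 (0.77), as Krt5 and Krt15 had 0.74 (0.71), and Krt4 and Krt5 had 0.63 (0.70). Krt4 and Krt8 had 0.38 (-0.09). Among the 18145 genes that are not keratins, those most like Krt4 were Calml3 (r = 0.94), Sprr3 (0.93), Csta1 (0.89), Tmprss11a (0.87) and Cnfn (0.83). Those most like Krt5 were Trp63 (0.90), Dsc2, a desmosomal cadherin (0.89), Krtdap (0.80), Chl1 (0.79) and Trim29 (0.79). Those most like Krt8 were Klc3 (0.84), Cracdl (0.84), Tmem213 (0.82), Fgfbp1 (0.82) and Myo5c (0.81), whose r within groups was 0.15 to 0.38.

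The share of a gene's variance that lay between libraries of the same group, and not between groups, differed among these genes. It was 4% for Krt80, 6.21% for Krt7, 6.64% for Krt19, 12% for Krt8 and 13.2% for Krt18. It was 13.9% for Krt15, 16.5% for Krt13, 19.7% for Krt4, 21.4% for Krt6a, 22.5% for Krt5 and 37.7% for Krt14. The simple keratin Krt18 and the basal keratin Krt15 were thus close.

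Other genes, mostly epithelial, were followed as 4 lists without keratins. Of 14 genes listed as partners of keratin filaments (mostly desmosome and linker proteins), 9 rose and 2 fell from E13.5 to PND42 in each genotype, with a median difference of 0.85 in KO and 0.97 in WT, against 0.06 in KO and -0.06 in WT over all genes. The list also holds Pnn and Vim, another intermediate filament gene, and it shares Dst with the airway basal list. Over all genes 27.8% rose and 26.1% fell in KO, and 25.7% rose and 28.1% fell in WT. Of 11 measured genes of simple epithelium, 6 rose and 3 fell in KO (median 0.68), and 7 rose and 3 fell in WT (0.81). In the average of KO minus WT, Jup, plakoglobin of desmosomes (0.21, adjusted p = 0.0072), and Eppk1, epiplakin (0.20, 0.032), were higher among the partners, and Cldn3 (0.23, 0.039) and Cldn7 (0.20, 0.036), claudins of tight junctions, among the simple epithelium genes. Of 10 airway basal genes, Lamb3, a laminin chain, was higher (0.22, adjusted p = 0.013) and Egfr, a growth factor receptor, lower (-0.17, 0.020). Of 18 oesophagus genes, Dsc2 (-0.61, adjusted p = 0.015) and Ly6d (-0.52, 0.022) were lower. The medians of these 4 lists in that average lay between -0.17 and 0.07, against 0.01 over all genes. The 2 genes called in each list (of 14, 11, 10 and 18) are to be read against the 11.3% of all genes called in that average.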

How the data were processed

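Signals of 45101 probe sets on 66 one-colour arrays were used as deposited. Per the labels, biotin-labelled RNA of lung homogenate was hybridised, and the submitters' processing notes name GCOS, of which no version or algorithm is given in the sources used here. Values deposited by the authors are intensity values on a linear scale, of 0.0326 to 61022, with no read depth, so the number of arrays limits the precision. After removal of 64 control probe sets, these signals were quantile normalized between arrays and then taken as log2(signal + 16) (R 4.3.3 with the data.table package, version 1.17.8). The 22 group means were fitted with limma 3.58.1 (lmFit, eBayes with trend), and p-values were adjusted by Benjamini-Hochberg over all remaining probe sets at a threshold of 0.05. Genes were named where a probe set carried 1 symbol (34945 probe sets, against 932 with several and 9160 with none). With 3 arrays per group an exact permutation test goes no lower than 0.1, so single ages rest on limma. Figures were drawn with Python 3.11.15 and matplotlib 3.10.9.

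Genes named with values were the 9 simple, basal and squamous keratins, every keratin past the threshold in the average over ages or at a single age, the 6 keratins with the smallest p for age in WT, and for Krt4, Krt5 and Krt8 the 5 most similar other genes. Krt71 and Krt78 and the remaining keratins were named after their values were seen. The keratins and all gene lists were chosen with earlier results of these data known. Replicate numbers are shared between genotypes in the labels. Of 33 same-numbered pairs 1 had a correlation of deviations over 0.1 (range -0.18 to 0.21), and in 14 it was higher than with any other number. The numbers were therefore not used as pairs, although these correlations cannot exclude a link between same-numbered samples. Alternatives were a filter on dim probe sets, the scaling, the pseudocount, array weights, the eBayes trend, the arrays in the fit, a replicate block, subsets of ages and leaving out each library. The models were tested on simulated data.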

Additional observations from a re-analysis of the deposited data

Results flagged for a closer look

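For 10 of 48 keratins, an F test (limma) found that the difference between KO and WT was not the same at all 11 ages, against 35.2% of all genes. The adjusted p was 6.9e-05 for Krt80, which was lower in KO at the label E18.5 and higher in KO at PND0. It was 0.011 for Krt4 and 0.023 for Krt13, the squamous keratins, which were lower in KO at E17.5 and PND2. It was 0.020 for Krt18 and 0.021 for Krt8 of simple epithelium, and 0.047 for Krt5 of basal cells. It was 0.027 for Krt23, 0.035 for Krt17 and 0.047 for Krt16. Krt86, a hair keratin, had 0.032 but lay between 4.09 and 5.86 in all libraries, below the array median. Without the ages E17.5 and E18.5, 5 keratins were called. Set against WT E17.5, the KO libraries labelled E18.5 differed by -0.05 in Krt80. At PND2, Krt4 and Krt13 did not pass without WT replicate 1 (limma, adjusted p of 0.38 and 0.36).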

How the results depend on the processing

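Keratins called in the average of KO minus WT numbered 6 with a filter on dim probe sets (15 keratins kept), 6 with array weights (0.136 to 3.11), 5 with a replicate block, where Krt7 passed, and 1 at PND1 to PND4 alone, against 3. There Krt14 (0.20), Krt18 (0.07) and Krt5 (0.01) changed sign. The numbers were not taken as pairs. The block gave 10 calls for the dependence on age, 17 at single ages, and 25 in KO and 26 in WT for age. It gave 12 in KO and 17 in WT for PND42 against E13.5, and 42 in KO and 38 in WT over steps. Calls for the dependence of the difference on age numbered 16 with array weights and 5 without E17.5 and E18.5, against 10. Calls at single ages numbered 31 with array weights, against 15. The dim filter gave 15 calls for age in KO, 14 for age in WT and 11 for PND42 against E13.5 in WT, against 25, 25 and 17. The cause was not tested, except that the filter tests fewer keratins. Leaving out 1 library gave 2 to 7 calls in the average, 7 to 12 for the dependence, 12 to 21 at single ages, 23 to 27 for age in KO and 24 to 27 in WT, 9 to 13 for PND42 against E13.5 in KO and 13 to 17 in WT, 32 to 46 over steps in KO and 30 to 40 in WT, and 26 to 27 libraries with a squamous above a simple score. The average gave 7 calls without WT PND2 replicate 3, 6 without KO PND2 replicate 3, and 5 without KO PND0 replicate 1, KO PND3 replicate 1, KO PND14 replicate 2, WT E13.5 replicate 1 or 3, WT E15.5 replicate 3, WT E18.5 replicate 2 or WT PND14 replicate 3. The exclusion of libraries by thymocyte score was chosen after seeing the data. Krt80 at PND0 passed in all 80 settings (1.04 to 1.24).
With the 6 arrays of an age alone in the fit, no keratin called at PND2 or PND14 passed (adjusted p of 0.21 to 0.65). Dim keratins near the array floor are limited by background signal.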
